A study of Homo sapiens with 9 samples.

Results

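The genes described here are the 10 transcription factors SNAI1, SNAI2, SNAI3, ZEB1, ZEB2, TWIST1, TWIST2, PRRX1, TCF4 and FOXC2, known as inducers of epithelial to mesenchymal transition (EMT). They were taken by gene symbol from a table of 58676 genes, with no cut on their values, but earlier results of these data were known. Their messenger RNA was followed across 3 groups of OVCA433 cells. OVCA433 is an established line labelled as ovarian serous adenocarcinoma. All groups were wild type by label, were grown in RPMI medium with 10% serum and received a lentiviral vector: the shRNA control vector, shRNA#1-MPZL3 or shRNA#3-MPZL3, with 3 biological replicates (A, B and C) per group. Both hairpins target MPZL3, a predicted cell adhesion molecule. The study's methods name an empty vector for the control of these cells but elsewhere use the abbreviation for a scrambled one, so whether control cells carried a hairpin is not certain. The transduced cells were selected as populations, and no single clone is described.

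EMT is the program by which epithelial cells loosen their junctions and take on mesenchymal traits. The SNAI (snail and slug) and ZEB zinc-finger proteins bind E-box sequences in the promoters of epithelial genes such as CDH1 and recruit corepressors, whereas TWIST proteins and the E protein TCF4 are basic helix-loop-helix factors that bind E-boxes as pairs. The ZEB genes and the miR-200 family repress each other, which is among the best-known switches of this program. TCF4 here is the E protein also called E2-2, not the Wnt effector TCF7L2.

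The libraries held 16850854 to 23890191 counts, and the floor of 3 counts per library lay at 0.129 to 0.177 CPM, the unit used below for counts scaled to library size with TMM factors. MPZL3 was at 15.6, 21.9 and 21.0 CPM in control replicates A, B and C and between 0.988 and 1.98 CPM in the 6 knockdown libraries. The labelled cell type was checked against 6 serous and Mullerian markers, of which WT1 and EMX2 had 0 counts in all 9 libraries. PAX8, the Mullerian lineage factor, was at 97.0 ± 16.7 CPM (SD, n = 3) in control and at 200 ± 12.2 and 207 ± 20.6 CPM with hairpin #1 and #3. KRT8 and KRT18 were present throughout but lower in knockdown, KRT18 by a log2 fold change of -1.41 with both hairpins. EPCAM and KRT19 were at -5.81 and -3.82. MUC16, the gene of the antigen CA125, had 42 to 86 counts in control and 0 counts in all 6 knockdown libraries, and CDH1 had 5526 to 5802 counts in control and 0 to 6 in knockdown. The knockdown libraries therefore lacked 2 markers that the control libraries carried and held less of other epithelial markers. Every comparison with control below is between libraries that differ in this way. Whether the knockdown and control cells were otherwise the same cells was not tested, and each fold change against control is to be read with that limit.

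Of the 10 factors, 8 passed the filter on low counts and 2 did not. Between knockdown (both hairpins, 6 libraries) and control, 6 of the 8 were called higher, which means an adjusted p-value under 0.05 with a log2 fold change of at least 1. They were ZEB1, ZEB2, SNAI1, TCF4, TWIST2 and TWIST1. None was called lower by edgeR or by DESeq2, and none had a lower level at an unadjusted p-value under 0.05. Over all 15975 tested genes, 14.7% were called in this comparison, 7.26% higher and 7.4% lower. The same 6 factors were called higher with hairpin #1 alone, where 7.76% of all tested genes were, and with hairpin #3 alone, where 7.46% were. The 2 hairpin comparisons share their control libraries. Each of the 6 factors was above every control library in all 6 knockdown libraries, a pattern that 15.5% of the tested genes showed. The median log2 fold change of the 8 tested factors was 2.15, against 0.00454 over all tested genes.

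**Figure D1:**
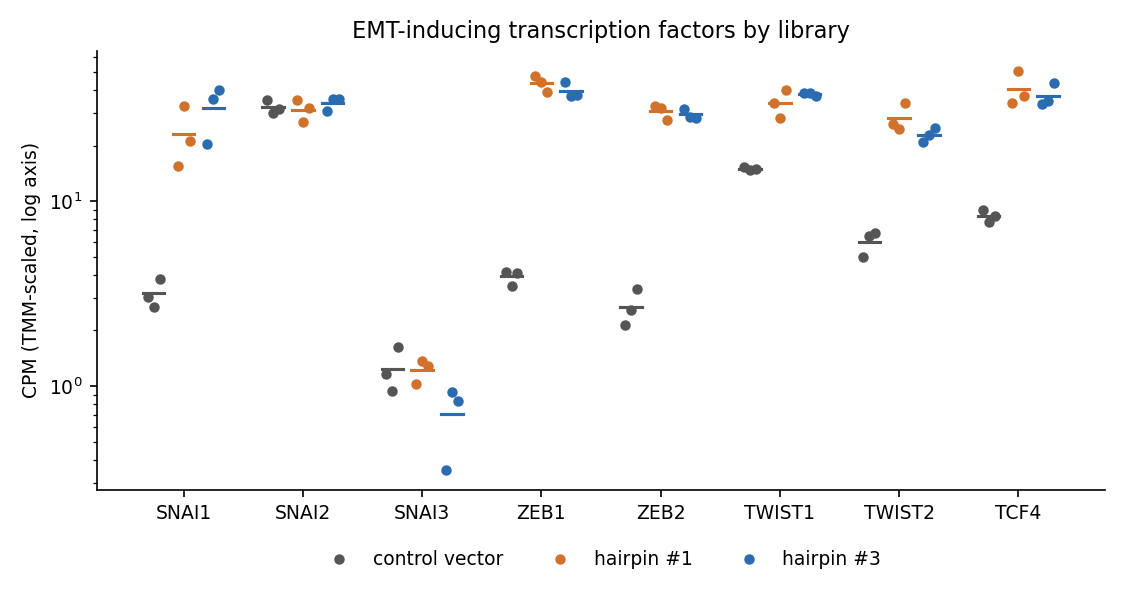
CPM (log axis) of the 8 tested factors in each library, with 3 points per group for the control vector, hairpin #1 and hairpin #3 and a bar at each group mean. The points of SNAI1, ZEB1, ZEB2, TWIST1, TWIST2 and TCF4 lie apart between control and knockdown, those of SNAI2 lie between 26.7 and 35.7 CPM in all groups, and those of SNAI3 stay under 1.7 CPM.

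With both hairpins pooled, the ZEB genes had the largest fold changes of the 8 tested factors. With hairpin #3 alone SNAI1 and ZEB1 were level, at a log2 fold change of 3.33 each. ZEB1 (ENSG00000148516, GRCh38 chromosome 10, 31318495 to 31529814, plus strand) was at 4.16, 3.48 and 4.11 CPM in control A, B and C. It was at 47.6, 44.1 and 39.1 CPM with hairpin #1 and at 44.0, 37.1 and 37.5 CPM with hairpin #3. All knockdown libraries lay far above all control libraries. With both hairpins the log2 fold change was 3.40 with an SE of 0.134 (edgeR adjusted p-value 4.3e-09), or 10.6-fold, and 188 of the tested genes had a larger fitted rise.

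ZEB2 (ENSG00000169554, chromosome 2, 144384081 to 144524583, minus strand), the second member of this zinc-finger family, was at 2.13, 2.59 and 3.35 CPM in control. It was at 32.7, 32.05 and 27.4 CPM with hairpin #1 and at 31.5, 28.7 and 28.3 CPM with hairpin #3. No library of one condition came near the other. With both hairpins the log2 fold change was 3.48 with an SE of 0.156 (edgeR adjusted p-value 1.15e-08), or 11.2-fold.

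The miR-200 family is known to act on both ZEB messages through short seed matches in their 3′ UTRs, so these sequences are shown for the pair of genes with the largest change. The mature miRNAs (RefSeq, GRCh38.p14) fall into groups by their seed, bases 2 to 8, printed in capitals. The first 3 share one seed, the next 2 share another that differs by one base, and miR-205-5p has its own.
hsa-miR-200b-3p: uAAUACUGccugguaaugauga
hsa-miR-200c-3p: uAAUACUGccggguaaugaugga
hsa-miR-429: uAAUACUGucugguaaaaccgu
hsa-miR-200a-3p: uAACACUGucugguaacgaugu
hsa-miR-141-3p: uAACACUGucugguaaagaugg
hsa-miR-205-5p: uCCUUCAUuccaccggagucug

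Matches to these seeds were searched on the transcript strand in the 3′ UTR of the principal coding transcript (GENCODE 29). The first group is matched by CAGTATT, the second by CAGTGTT and miR-205-5p by ATGAAGG. The ZEB1 3′ UTR of 1938 bases held 5 matches of the first kind, 3 of the second and 1 to miR-205-5p. The ZEB2 3′ UTR of 5370 bases held 5 and 4 of the miR-200 kinds and 0 to miR-205-5p. Of 13134 tested genes with a 3′ UTR, 0.0685% had at least the 8 miR-200 matches of ZEB1 and 0.0381% at least the 9 of ZEB2. These shares are over UTRs of all lengths. The first site of each kind is printed with its flanks, the match in capitals.
ZEB1, chr10:31527618-31527645, plus strand: attgttttatcttatCAGTATTatcact
ZEB1, chr10:31528031-31528058, plus strand: caaaatcatcagaatCAGTGTTtgtgat
ZEB2, chr2:144389047-144389074, minus strand: cgcactaccatacatCAGTATTtttatt
ZEB2, chr2:144389231-144389258, minus strand: tgcaaaaattttgtaCAGTGTTaaggcc

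Among the other factors, the 3′ UTR of TCF4 (5701 bases) held 3 miR-200 matches, a number that 4.11% of genes reached, and that of SNAI2 held 1, which 30.6% reached. SNAI1, SNAI3, TWIST1, TWIST2, PRRX1 and FOXC2 held none of these letters. Genes with and without matches were both found among the 6 that rose. A match is a description of the letters and was not tested as a site.

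**Figure D2:**
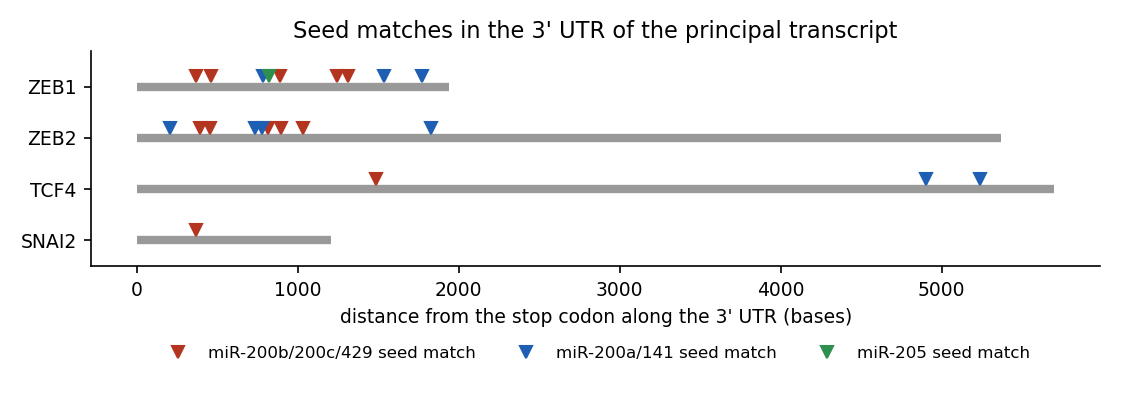
Seed matches along the 3′ UTR of the principal transcript of ZEB1, ZEB2, TCF4 and SNAI2, with the distance from the stop codon in bases on the x axis, a grey bar for the UTR and a triangle for each match, coloured by miRNA group. ZEB1 carries 9 matches in 1938 bases, and those of ZEB2 lie in the first part of its UTR.

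The genes that host these miRNAs were read next. Libraries made from poly(A) RNA do not measure mature miRNAs, so only their host transcripts and the few counts assigned to the hairpin genes can be given. MIR200CHG, the host of miR-200c and miR-141, had 59, 95 and 91 counts in control and 0 in all 6 knockdown libraries, at least 26.5-fold lower against a floor of 3 counts in each knockdown library. MIR205HG, the host of miR-205, had 1022, 1012 and 1271 counts in control and at most 1 in any knockdown library, at least 357-fold lower with the floor set likewise. Both passed the test (edgeR adjusted p-values 2.06e-05 and 8.07e-11), and they were the only 2 of 8 host and hairpin genes that passed the count filter. MIR429 had 5, 12 and 7 counts in control and at most 2 in knockdown, and MIR205 had 5, 11 and 10 in control and 0 in knockdown. MIR205HG and MIR205 overlap, as do MIR200CHG and its miRNAs, so their reads cannot be separated.

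The SNAI genes did not move together. SNAI1 (ENSG00000124216, chromosome 20, 49982999 to 49988886, plus strand), or snail, a repressor of CDH1, was at 3.05, 2.69 and 3.78 CPM in control. It was at 15.5, 32.6 and 21.1 CPM with hairpin #1 and at 20.3, 35.6 and 40.0 CPM with hairpin #3. Its knockdown libraries spanned a wider range than those of any ZEB or TWIST gene, all above control. With both hairpins the log2 fold change was 3.11 with an SE of 0.331 (edgeR adjusted p-value 1.89e-05), or 8.65-fold. Of the 50 genes around SNAI1 with at least 10 CPM, the median log2 fold change was -0.18 with both hairpins, -0.31 with hairpin #1 and -0.06 with hairpin #3, so the region as a whole moved little and in the other direction.

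SNAI2 (ENSG00000019549, chromosome 8, 48917690 to 48921740, minus strand), or slug, was at 35.3, 30.1 and 31.5 CPM in control. It was at 35.3, 26.7 and 31.7 CPM with hairpin #1 and at 30.9, 35.7 and 35.5 CPM with hairpin #3. The groups overlapped. No change was detected (log2 fold change 0.01, 95% interval -0.23 to 0.26, edgeR adjusted p-value 0.938), and the interval excludes a change of 2-fold in either direction. The median of its 50 neighbours was -0.27.

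SNAI3 (ENSG00000185669, chromosome 16, 88677682 to 88686493, minus strand), the least studied snail gene, was at 1.16, 0.946 and 1.62 CPM in control, or 19 to 34 counts. It was at 1.03, 1.37 and 1.29 CPM with hairpin #1 and at 0.353, 0.933 and 0.829 CPM with hairpin #3. The 3 hairpin #3 libraries lay below the 3 control libraries, but no change was detected with this hairpin (log2 fold change -0.80, 95% interval -1.63 to 0.03, edgeR adjusted p-value 0.129) or with both (-0.35, interval -1.15 to 0.44, edgeR adjusted p-value 0.502). At this depth a 2-fold fall could not be told from none. SNAI3 shares 163 exon bases with the antisense gene SNAI3-AS1. SNAI3-AS1 was called higher with the hairpins pooled (log2 fold change 1.07, SE 0.299, adjusted p-value 0.016 by edgeR) and with hairpin #1 (1.33, adjusted p-value 0.00217 by edgeR), but not with hairpin #3 (0.76, adjusted p-value 0.061 by edgeR). The pooled call was lost when control replicate A or C, or hairpin #1 replicate B or C, was left out, with log2 fold changes of 0.92 to 1.10.

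The TWIST genes both rose, and by unequal amounts. TWIST1 (ENSG00000122691, chromosome 7, 19020991 to 19117672, minus strand), a basic helix-loop-helix factor of mesoderm, was at 15.3, 14.8 and 14.9 CPM in control. It was at 33.8, 28.0 and 39.9 CPM with hairpin #1 and at 38.5, 38.5 and 36.9 CPM with hairpin #3. The groups did not overlap. With both hairpins the log2 fold change was 1.26 with an SE of 0.122 (edgeR adjusted p-value 8.68e-06), or 2.40-fold, the smallest of the 6 rises.

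TWIST2 (ENSG00000233608, chromosome 2, 238848032 to 238910543, plus strand), also called DERMO1, was at 4.99, 6.47 and 6.69 CPM in control. It was at 26.1, 24.5 and 33.9 CPM with hairpin #1 and at 20.9, 22.8 and 24.8 CPM with hairpin #3. All knockdown libraries lay above the highest control library. With both hairpins the log2 fold change was 2.07 with an SE of 0.174 (edgeR adjusted p-value 2.54e-06), or 4.21-fold. The DNA-binding domains of TWIST1 and TWIST2 are nearly identical, and how reads that map to both were counted is not given in the sources used here.

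TCF4 (ENSG00000196628, chromosome 18, 55222331 to 55664787, minus strand), an E protein that pairs with TWIST and other helix-loop-helix factors, was at 8.91, 7.76 and 8.32 CPM in control. It was at 33.8, 50.8 and 36.8 CPM with hairpin #1 and at 33.4, 34.6 and 43.4 CPM with hairpin #3. The groups did not overlap. With both hairpins the log2 fold change was 2.22 with an SE of 0.160 (edgeR adjusted p-value 7.09e-07), or 4.66-fold.

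PRRX1, a paired-type homeobox factor of mesenchyme, and FOXC2, a forkhead factor of mesoderm and lymphatic vessels, were close to absent. PRRX1 had 0, 0 and 5 counts in control, 0, 0 and 1 with hairpin #1 and 0, 0 and 0 with hairpin #3. FOXC2 had 2, 0 and 0 counts in control and 0 in all 6 knockdown libraries. Neither passed the filter for the main tests, and no rise was visible in either.

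**Figure D3:**
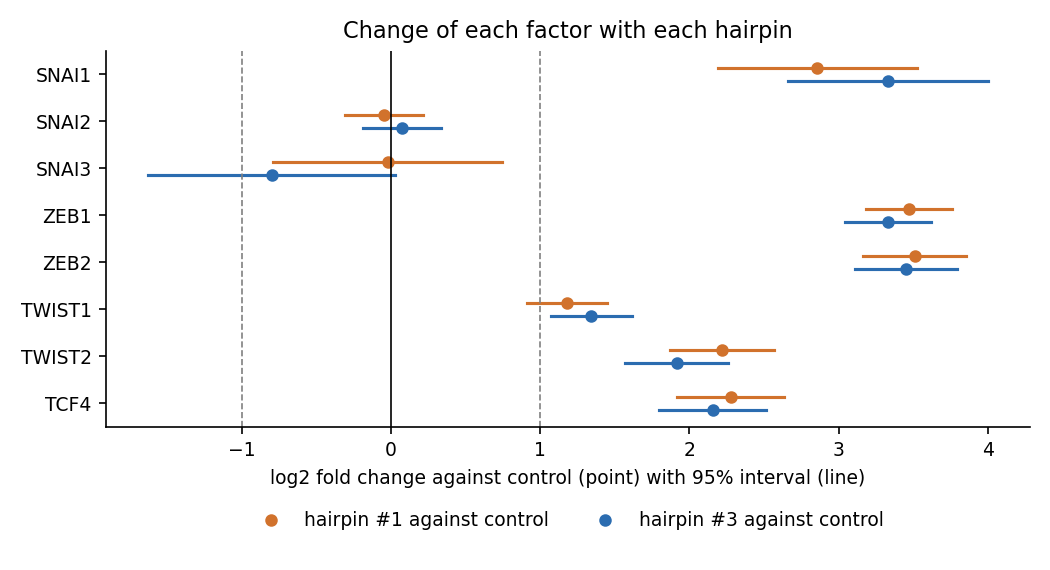
Log2 fold change against control of the 8 tested factors (x axis) with hairpin #1 and hairpin #3, each with its 95% interval as a line and dashed lines at a change of 2-fold. The intervals of both hairpins overlap for every factor, those of SNAI2 include 0, and those of ZEB1 and ZEB2 lie above 3.

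The direct comparison of the hairpins asked whether the factors responded differently to them. Between hairpin #3 and hairpin #1, 0 of the 8 factors were called by edgeR and 0 by DESeq2, and 0 had an unadjusted p-value under 0.05 by edgeR, where 3.93% of all tested genes were called. The largest differences were -0.78 for SNAI3 (95% interval -1.61 to 0.05, edgeR adjusted p-value 0.231) and 0.48 for SNAI1 (-0.09 to 1.04, edgeR adjusted p-value 0.295). The 50 genes around SNAI1 had a median difference of 0.30 in the same comparison. TWIST2 differed by -0.30 (-0.62 to 0.01, edgeR adjusted p-value 0.222). The adjusted p-value of SNAI1 was 0.015 with no filter on low counts and 0.0436 when the replicate letter was fitted as a block, and it ranged up to 0.656 over 17 alternatives (edgeR or DESeq2). That of TWIST2 was 0.0496 with the block and ranged up to 0.621, and in no alternative did either difference reach 1 on the log2 scale. For ZEB1, ZEB2, TWIST1, TCF4 and SNAI2 the differences lay between -0.14 and 0.16, and their intervals, between -0.45 and 0.42 in all, exclude a difference of 2-fold.

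The factors were compared within their families as ratios per base of gene length, so that a shared change cancels. SNAI2 was 7.53 times SNAI1 in control (geometric mean) and 0.922 times SNAI1 in knockdown. The log2 ratio was 3.09, 3.03 and 2.62 in control, and it was 0.75, -0.73 and 0.15 with hairpin #1 and 0.17, -0.43 and -0.61 with hairpin #3. The groups did not overlap, and the difference was -3.03 (two-sided exact permutation test over 84 arrangements, p = 0.0238, the smallest it can give, adjusted over 3 pairs 0.0357). Slug was thus the more abundant of the pair in control, and neither was in all knockdown libraries.

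TWIST2 was 0.435 times TWIST1 in control and 0.764 times TWIST1 in knockdown. The log2 ratio was -1.49, -1.07 and -1.03 in control, -0.26, -0.08 and -0.12 with hairpin #1 and -0.77, -0.64 and -0.46 with hairpin #3. The 2 hairpins did not overlap, with means of -0.15 and -0.62, so the knockdown value of 0.764 lies between them. All knockdown ratios were above those of control, and the difference was 0.81 (same exact permutation test, p = 0.0238, adjusted 0.0357). ZEB2 was 0.267 times ZEB1 in control and 0.286 times ZEB1 in knockdown, and the difference of 0.10 was within the spread of the control libraries (exact permutation p = 0.619, adjusted 0.619). Leaving out any 1 library raised the adjusted p-values of SNAI2 to SNAI1 and TWIST2 to TWIST1 to between 0.0536 and 0.107 in the exact permutation test, which then has fewer arrangements, with differences of -3.20 to -2.91 and 0.67 to 0.90. Since ZEB1 and ZEB2 rose 10.6-fold and 11.2-fold, the ratio moved little beside the genes themselves. The log2 ratio ranged from -1.89 to -1.72 in knockdown and from -2.30 to -1.64 in control.

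Levels of different genes were set side by side per length, as RPKM with the gene length of the table. In control the order was SNAI2 (14.2 ± 1.18, SD, n = 3), TWIST1 (7.36 ± 0.124), TWIST2 (3.22 ± 0.493), SNAI1 (1.88 ± 0.329), SNAI3 (0.718 ± 0.200), ZEB1 (0.453 ± 0.0437), TCF4 (0.339 ± 0.0233) and ZEB2 (0.122 ± 0.0279). No neighbours in this order overlapped in their 3 libraries. With the length of the principal transcript in place of that of the gene, chosen after seeing the data, TCF4 was at 1.00 in control and above ZEB1 at 0.723 and SNAI3 at 0.718, since the table's length of TCF4 is 2.95 times that of its transcript. The places of TCF4, ZEB1 and SNAI3 in control therefore depended on the length used.

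With hairpin #1 the first 4 were TWIST1 (16.7 ± 2.92 RPKM), TWIST2 (14.99 ± 2.67), SNAI1 (13.7 ± 5.17) and SNAI2 (13.7 ± 1.90), which overlapped one another. ZEB1 followed at 5.04 ± 0.492, then TCF4 at 1.65 ± 0.368 and ZEB2 at 1.40 ± 0.131, whose ranges overlapped, and SNAI3 at 0.710 ± 0.104. With hairpin #3 the first were SNAI1 (19.0 ± 6.13) and TWIST1 (18.7 ± 0.458), which overlapped, followed by SNAI2 (14.9 ± 1.19) and TWIST2 (12.1 ± 1.03), which did not. SNAI1, at 12.0 to 23.7 RPKM, overlapped all of these. By transcript length the order was TWIST1 (22.8), SNAI1 (18.95), TWIST2 (16.2) and SNAI2 (14.01), with TWIST2 above SNAI2 in place of below it. ZEB1 was at 4.57 ± 0.443, TCF4 at 1.51 ± 0.222, ZEB2 at 1.34 ± 0.0796 and SNAI3 at 0.407 ± 0.178. SNAI2 was thus the highest of the factors in control and one of several at a like level in knockdown.

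**Figure D4:**
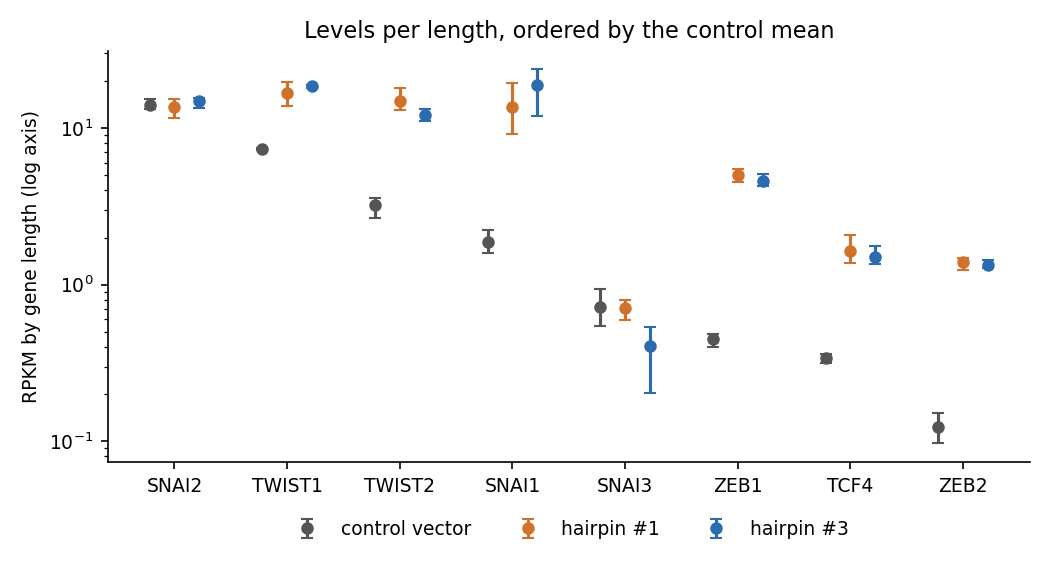
RPKM by gene length (log axis) of the 8 tested factors, ordered by their control mean, with a point at the mean of 3 libraries per group and bars from the lowest to the highest library. In control the factors spread from 0.122 to 14.2 RPKM, and in knockdown the ranges of TWIST1 and TWIST2 with hairpin #1, and of SNAI1 with either hairpin, overlap or pass that of SNAI2.

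Genes with the most similar pattern were taken as the 3 with the highest Pearson correlation of log2 CPM over the 9 libraries, among the 13754 genes that averaged 1 CPM or more. The 9 libraries fall into control and knockdown, so for the 6 factors that rose this measure mostly reflects that split, and 237 to 464 genes reached 0.95 for each of them. The nearest were MPDZ, DFNB31 and CSF1 for SNAI1, TLN2, TNS1 and TENM4 for ZEB1, and MSRB3, CRTAP and TIE1 for ZEB2. They were BATF3, KCNMA1 and PEAR1 for TWIST1, IGSF10, TMCC1-AS1 and KCNK2 for TWIST2, and TRO, CBLB and FMNL2 for TCF4. All of these were at 0.988 to 0.999. For SNAI2 the nearest were EXOSC2, YEATS4 and SF1, at 0.875 to 0.894, and 0 genes reached 0.95. For SNAI3 they were USP19, MGAT1 and RP11-705C15.3, at 0.942 to 0.967.

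Other transcription factors linked to EMT did not share the direction of the 6. Of 14 on the list, 11 were tested. With both hairpins, 3 were called higher (GSC, TBX3 and LEF1) and 3 lower (FOXQ1, KLF8 and HMGA2), with a median log2 fold change of -0.24. Over all tested genes 7.26% were called higher and 7.4% lower, and these shares also stand beside the pooled counts of the lists below. TBX3, a T-box factor, rose from 11.8 ± 0.279 CPM (SD, n = 3) to 47.8 ± 7.64 and 47.7 ± 6.84 with hairpin #1 and #3 (log2 fold change 2.02, SE 0.132, adjusted p-value 3.14e-07 by edgeR). GSC, the homeobox gene goosecoid, rose by 2.10 (SE 0.419, adjusted p-value 0.00223 by edgeR) and stayed under 4 CPM. FOXQ1, a forkhead factor, fell from 51.9 ± 4.51 CPM to 3.23 ± 0.380 and 9.74 ± 2.47. KLF8, a Krüppel-like repressor, fell from 10.6 ± 0.782 CPM to 1.95 ± 0.425 and 2.49 ± 0.494.

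The partners of the helix-loop-helix factors were mixed. Of 6 partners and ID inhibitors, all tested, ID3 was called higher and ID4 lower, and the median was 0.27. TCF3, the E protein E12/E47, was at 0.18 (edgeR adjusted p-value 0.217), and TCF12, another E protein, at 0.33 (edgeR adjusted p-value 0.0336), under the fold threshold. The ID proteins bind E proteins without binding DNA. ID4 fell from 60.2 ± 19.0 CPM in control to 2.97 ± 1.65 and 21.5 ± 3.11 (log2 fold change -2.31, SE 0.661, adjusted p-value 0.0185 by edgeR). ID3 went from 37.6 ± 27.3 CPM to 119 ± 56.5 and 129 ± 61.3 (log2 fold change 1.72, SE 0.566, adjusted p-value 0.0351 by edgeR), with 4 of 6 knockdown libraries above all control libraries. Its counts in replicates A, B and C were 158, 887 and 1276 in control. They were 1183, 3212 and 3208 with hairpin #1 and 1005, 3152 and 3376 with hairpin #3. Replicate A was the lowest of each group, and each knockdown library was above the control of its own letter. The call of ID3 was lost without any one of control replicate A or B or replicate B or C of either hairpin, and that of ID4 without control replicate B or C.

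Corepressors and the genes that act on the factors' proteins were nearly level. Of 14 corepressors and chromatin partners, 0 were called by edgeR and 0 by DESeq2, with a median of 0.05, although 6 had an unadjusted p-value under 0.05 and 5 an adjusted one. The list of 14 included CTBP1, CTBP2, HDAC1, KDM1A and EZH2, which are named here whatever their p-values. Log2 fold changes of the 14 ran from -0.45 to 0.97. The highest was that of LOXL2 at 0.97 (SE 0.139, adjusted p-value 1.91e-04 by edgeR), a lysyl oxidase that stabilises snail. Of 15 kinases, phosphatases, ubiquitin ligases and deubiquitinases that act on SNAI, TWIST or ZEB protein, 0 were called with both hairpins by either tool, with a median of 0.01, 5 at an unadjusted p-value under 0.05 and 3 at an adjusted one. PRKD1, a kinase that phosphorylates snail and was singled out after its values were seen, moved in opposite directions. It was at 2.37 to 2.77 CPM in control, 6.22 to 8.04 CPM with hairpin #1 and 0.552 to 0.823 CPM with hairpin #3, a log2 difference of -3.34 between the hairpins (adjusted p-value 2.28e-06 by edgeR).

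The genes that the factors are known to repress fell almost without exception. Of 20 epithelial genes on this list, all tested, 19 were called lower with both hairpins, and the remaining one, DSP, was at -0.79 (edgeR adjusted p-value 8.2e-04), under the fold threshold. The median was -5.10, and over all tested genes 7.4% were called lower. CDH1, E-cadherin, was at 275 ± 5.48 CPM (SD, n = 3) in control and at 0.112 ± 0.0816 and 0.148 ± 0.183 CPM with hairpin #1 and #3. ESRP1, a splicing factor of epithelial cells, was at 172 ± 11.5 CPM in control and had 0 to 4 counts in each knockdown library. ST14, the membrane protease matriptase, was at 406 ± 21.1 CPM in control and at 0.112 ± 0.0816 and 0.308 ± 0.195 CPM. RAB25, an epithelial vesicle GTPase, was at 128 ± 16.9 CPM in control and had at most 3 counts in any knockdown library, at least 855-fold lower. In bulk RNA, fewer cells of a type and less RNA per cell cannot be told apart.

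The promoters of these genes are shown because the SNAI and ZEB proteins bind the E-box CAGGTG, which reads CACCTG on the other strand. Promoter windows of 250 bases before and 50 after the start were taken from RefSeq (GRCh38.p14), and both spellings were counted on either strand. Of all 35116 windows 20.6% held one, or 24.1% of 27305 genes. Of the repressed genes 10 had a window, and 9 (90%) held an E-box, in 11 of 14 windows. Of the raised targets below 1 of 13 genes did (7.69%). Genes of the repressed list are partly known as targets because such E-boxes were found in them, so the share is a description. The bases before the start are printed for CRB3, a polarity gene, which held 5 matches, for CLDN7, a claudin, with 4 in this stretch, and for the miRNA host MIR200CHG, with 1. E-boxes are in capitals.
CRB3, chr19:6464021-6464270, plus strand: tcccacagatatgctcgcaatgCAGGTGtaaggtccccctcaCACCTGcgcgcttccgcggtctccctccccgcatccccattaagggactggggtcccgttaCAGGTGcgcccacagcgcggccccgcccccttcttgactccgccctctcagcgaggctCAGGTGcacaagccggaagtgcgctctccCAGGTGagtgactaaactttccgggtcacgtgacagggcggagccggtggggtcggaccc
CLDN7, chr17:7262479-7262728, minus strand: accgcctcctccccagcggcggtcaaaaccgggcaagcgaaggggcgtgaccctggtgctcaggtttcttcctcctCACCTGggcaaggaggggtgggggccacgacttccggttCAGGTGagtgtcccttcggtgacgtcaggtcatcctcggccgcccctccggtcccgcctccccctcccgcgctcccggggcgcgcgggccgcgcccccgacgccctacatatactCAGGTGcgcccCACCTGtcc
MIR200CHG, chr12:6962995-6963244, plus strand: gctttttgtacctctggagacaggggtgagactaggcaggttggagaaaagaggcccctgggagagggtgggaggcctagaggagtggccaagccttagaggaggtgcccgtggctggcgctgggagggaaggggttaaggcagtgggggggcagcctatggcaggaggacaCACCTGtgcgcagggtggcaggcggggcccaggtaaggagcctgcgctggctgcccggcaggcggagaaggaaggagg

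Of the factors, PRRX1, ZEB1, ZEB2, TWIST2 and TCF4 had a promoter window in this table, 20 windows in all, and 2 held the E-box, both of ZEB1. The one with 3 matches is printed up to its start, with 2 of them. None of the 9 other EMT-associated factors with a window held these letters.
ZEB1, chr10:31318966-31319215, plus strand: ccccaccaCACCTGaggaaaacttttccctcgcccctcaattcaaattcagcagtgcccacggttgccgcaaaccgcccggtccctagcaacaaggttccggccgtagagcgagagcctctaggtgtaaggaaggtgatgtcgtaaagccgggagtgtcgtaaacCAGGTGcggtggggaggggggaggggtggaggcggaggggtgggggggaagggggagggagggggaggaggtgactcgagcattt

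Genes known to rise in EMT mostly did. Of 18 on the list, 17 were tested and 14 were called higher, none lower by edgeR or DESeq2, and none had a lower level at an unadjusted p-value under 0.05. The median was 2.28, and over all tested genes 7.26% were called higher. COL1A1, a fibrillar collagen, rose from 17.9 ± 1.88 CPM to 312 ± 188 and 641 ± 186 with hairpin #1 and #3, and PDGFRB, a growth factor receptor of mesenchymal cells, from 0.555 ± 0.280 CPM to 13.8 ± 5.23 and 16.8 ± 3.42. COL1A2 had at most 1 count in any control library and 15 to 88 in knockdown, at least 12.1-fold higher against 3 counts per control library. POSTN, periostin, had at most 1 count in control, 1 to 8 with hairpin #1 and 58 to 97 with hairpin #3, at least 14.5-fold higher on average, and its pooled call was lost without any 1 control library. AXL, a receptor tyrosine kinase, and THBS1, thrombospondin, were among those not called.

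**Figure D5:**
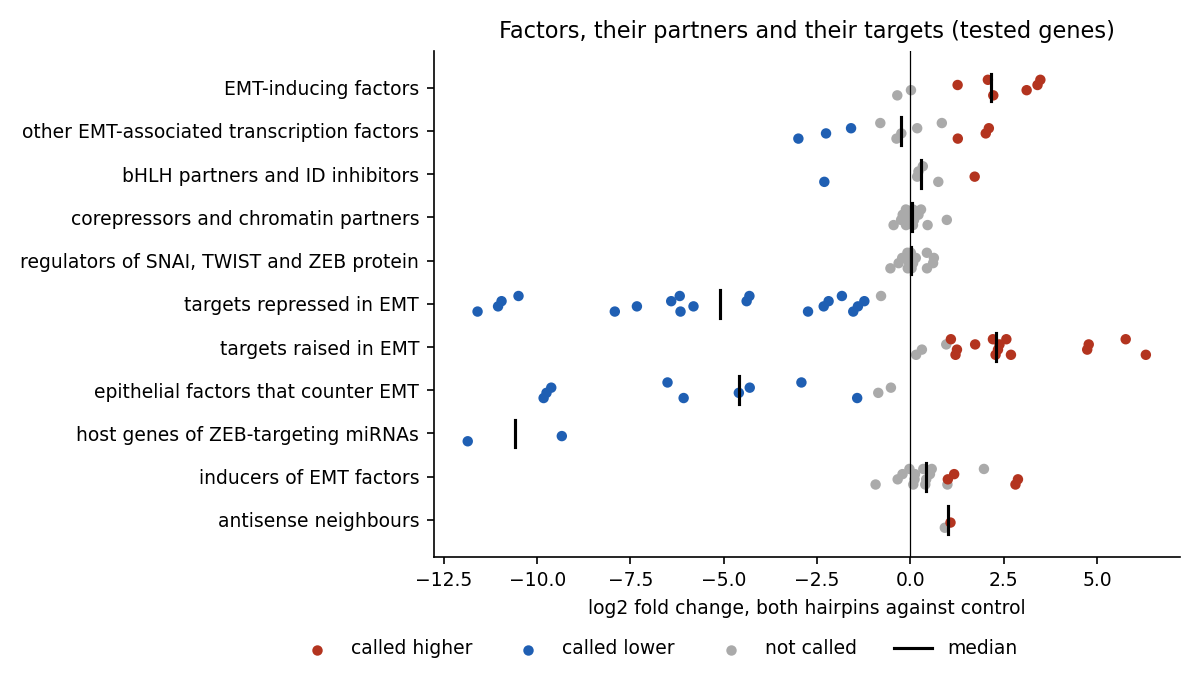
Log2 fold change between both hairpins and control (x axis) of each tested gene in the EMT-inducing factors and in 10 lists of genes around them, with red for called higher, blue for called lower, grey for not called and a black bar at the median of the list. The factors and the raised targets lie to the right, the repressed targets and the epithelial factors to the left, and the corepressors and protein regulators around 0. Fitted values below about -8 belong to genes with almost no counts in knockdown and depend on the prior count of the fit.

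Epithelial transcription factors that are known to oppose the EMT factors fell. Of 14 on the list, 11 were tested, 9 were called lower and 0 higher by either tool, with a median of -4.60 and 0 higher at an unadjusted p-value under 0.05. Over all tested genes 7.4% were called lower by edgeR. OVOL1, a zinc-finger factor, was at 13.1 ± 2.11 CPM (SD, n = 3) in control and had at most 1 count in knockdown, at least 87.1-fold lower. OVOL2, its relative and a known repressor of ZEB1, was at 17.9 ± 1.35 CPM in control and at 0.111 ± 0.0724 and 0.283 ± 0.0874 CPM. GRHL2, a grainyhead factor that represses ZEB1, was at 112 ± 13.6 CPM in control, at 0 counts in all hairpin #1 libraries and at 3, 2 and 10 counts with hairpin #3. EHF, an epithelial ETS factor, was at 56.8 ± 6.14 CPM in control and had at most 4 counts in knockdown.

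Of 19 genes for signals that are known to induce the factors, 18 were tested. With both hairpins 4 were called higher and none lower by either tool, with 1 lower at an unadjusted p-value under 0.05 and a median of 0.41. Over all tested genes 7.26% were called higher by edgeR. A further 7 of the 18 had an edgeR adjusted p-value under 0.05 in either direction but were under the fold threshold. INHBA, a subunit of activin, rose from 13.7 ± 4.57 CPM to 97.4 ± 40.4 and 94.7 ± 41.3 (log2 fold change 2.81, SE 0.366, adjusted p-value 9.5e-05 by edgeR). JAG1, a Notch ligand, rose by 1.17 (SE 0.280, adjusted p-value 0.00698 by edgeR). IL6, an inflammatory cytokine, was at 1.75 ± 0.568 CPM in control and at 20.8 ± 14.98 and 4.97 ± 3.29 CPM with hairpin #1 and #3. It was called with the hairpins pooled, was not called with hairpin #3 alone (log2 fold change 1.53, adjusted p-value 0.1003 by edgeR) and lost its pooled call without control replicate A, B or C. SMAD7, the inhibitory SMAD, rose by 1.00 (SE 0.346, adjusted p-value 0.0435 by edgeR) and was lost in 9 of 17 alternatives. TGFB1 was at 0.99 (SE 0.103, adjusted p-value 1.53e-05 by edgeR), just under the fold threshold. JAG1, SMAD7 and TGFB1 were called higher by edgeR with hairpin #3 alone but not with hairpin #1 alone. WNT5A, a Wnt ligand singled out after its values were seen, was at 0.968 to 1.29 CPM in control, 5.19 to 10.98 CPM with hairpin #1 and 0.184 to 0.274 CPM with hairpin #3, a difference between the hairpins of -5.24 (edgeR adjusted p-value 2.95e-06).

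Markers of other cell types moved with the factors, and their part in the rises was not tested. The summed level of 9 fibroblast markers was 19.0 to 23.0 CPM in control, 110 to 447 CPM with hairpin #1 and 503 to 871 CPM with hairpin #3. Nearly all of this in knockdown was COL1A1, which is also on the list of raised targets. All 5 markers tested were called higher with the hairpins pooled, with a median log2 fold change of 4.78. They were COL1A1, COL1A2, COL3A1, LUM and PDGFRB. LUM was not called by edgeR with hairpin #3 alone, where the other 4 were. DCN, a defining marker of fibroblasts, had 0 counts in every library, FAP had 7 to 18 counts in control and 1 to 12 in knockdown, and THY1 and PDGFRA had at most 9 counts in any library. Of 6 endothelial markers the sum was 14.8 to 23.3 CPM in control and 342 to 401 CPM in knockdown, nearly all of it TIE1. Of 4 tested, 3 were called higher with both hairpins: TIE1, CDH5 and KDR, at log2 fold changes of 4.42, 4.86 and 2.84. EMCN was at the floor in every group, PECAM1 in control and with hairpin #1, and CDH5 in control. The 6 mesothelial markers summed to 124 to 158, 94.1 to 110 and 155 to 197 CPM in control, hairpin #1 and hairpin #3, with WT1 and ITLN1 at the floor throughout. With both hairpins the only one of them called was UPK3B, which fell from 940 to 1457 counts in control to 8 to 19 in knockdown (log2 fold change -6.49, adjusted p-value 1.28e-09 by edgeR), while MSLN had 1109 to 1723 counts in control and 1330 to 3838 in knockdown. With hairpin #3 alone, MSLN and LRRN4 were called higher by edgeR, and 1 of them by DESeq2. The 6 leukocyte markers summed to at most 1.41 CPM in any library. The 6 simple epithelial markers summed to 11289 to 14151 CPM in control and 5062 to 6621 CPM in knockdown, and 5 of them were called lower with both hairpins. Of the serous lineage markers the sum was 199 to 262 CPM in control and 305 to 349 CPM in knockdown, with WT1 and EMX2 at the floor in every group, MUC16 at the floor in knockdown and PAX8 called higher.

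Several factors overlap antisense genes, and the libraries carry no strand, so reads of the shared bases cannot be told apart. The overlap in exons was 366 bases of ZEB1 with ZEB1-AS1, 1299 bases of ZEB2 with ZEB2-AS1 and 65 bases of TCF4 with TCF4-AS2, and TWIST1 overlaps AC003986.2. The counts assigned to these antisense genes were 547, 7, 0 and 29 over all 9 libraries, against 44 to 1019 counts of ZEB1 or ZEB2 in each library. ZEB1-AS1 was at a log2 fold change of 0.92 (SE 0.258, adjusted p-value 0.0164 by edgeR), under the fold threshold.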

How the data were processed

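RNA of 9 OVCA433 samples was sequenced from poly(A)-selected, non-directional libraries. The deposited values are raw read counts per gene, with no normalization. The submitters' processing notes name HISAT2 2.0.5, featureCounts 1.5.0-p3 and hg38, and the options for reads that map to several genes are not given in the sources used here. All 58676 gene identifiers were in GENCODE 29 (GRCh38), 95.24% of them with the same position, as for 7 of the 10 factors.

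Counts were filtered with filterByExpr (15975 genes kept), scaled with TMM factors and tested with edgeR 4.0.16 quasi-likelihood tests (R 4.3.3), and p-values were adjusted by the Benjamini-Hochberg method across every tested gene. As in the study's methods, both hairpins formed 1 arm of 6 libraries against 3 controls, and each hairpin was also fitted in a 3-group model. A gene was called at an adjusted p-value under 0.05 and a log2 fold change of at least 1 in size. DESeq2 1.42.0 was an alternative. Fits were tested on simulated counts. Ratios within families used 0.5 added counts and exact permutation tests (scipy 1.17.1).

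The factors and gene lists were chosen with earlier results of these data known. Named beside the factors were MPZL3, at most 4 called genes per list with the largest change and a mean of at least 1 CPM, and the 3 genes most alike each factor, and genes named otherwise are marked or serve as examples of a count. At the floor means that no library of the group exceeded 3 counts. Floors and bounds cover counting error only, since PCR copies were not marked. The alternatives were other filters, scalings and thresholds, DESeq2, a replicate block, other groupings and each library left out, and principal transcript lengths were added after seeing the data.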

Additional observations from a re-analysis of the deposited data

Results flagged for a closer look

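None of the 8 tested factors was called between the hairpins, where 3.93% of all tested genes were. Among the genes named for the largest changes of their lists, with PRKD1 and WNT5A, 8 differed. This was by the direct comparison of hairpin #3 with hairpin #1 (edgeR adjusted p-value under 0.05, no fold threshold). At that cut 1857 of all 15975 tested genes differed. The named genes were chosen for large changes, and PRKD1 and WNT5A with their levels already known. The 8 are therefore a list and not a share to compare with all genes. HMGA2 and CLDN7, named above as other members of their lists, were also called higher with hairpin #3. The causes were not tested. FOXQ1 was higher with hairpin #3 by 1.60 on the log2 scale (edgeR adjusted p-value 1.09e-04), at 2.90 to 3.64 CPM with hairpin #1 and 7.94 to 12.6 CPM with hairpin #3. ID4 was higher with hairpin #3 by 2.88 (1.14e-04), at 1.33 to 4.63 and 18.5 to 24.7 CPM. POSTN was higher with hairpin #3 by 4.52 (5.99e-05). GRHL2 had 0 counts in the 3 hairpin #1 libraries and 3, 2 and 10 with hairpin #3, a fitted difference of 5.45 (0.0125) that depends on the prior count of the fit. COL1A2 was lower with hairpin #3 by 1.60 (log2 difference -1.60, 0.0434) and IL6 by 2.04 (log2 difference -2.04, 0.0352), IL6 ranging from 5.65 to 35.6 and from 1.29 to 7.64 CPM. The difference of IL6 was not called by DESeq2 (adjusted p-value 0.0694), which called the other 7. PRKD1 and WNT5A lay above control with hairpin #1 and below it with hairpin #3, with log2 differences of -3.34 (2.28e-06) and -5.24 (2.95e-06).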

How the results depend on the processing

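The counts of factors called (6 with both hairpins, 6 with hairpin #1, 6 with hairpin #3 and 0 between the hairpins) were the same under every alternative run, DESeq2 and each left-out library (6 to 6, and 0 to 0 between the hairpins) included. Over all genes 2342 were called with both hairpins and 628 between the hairpins, and without the fold threshold 5269 and 1857. When the replicate letter was fitted as a block, the counts of factors were again 6, 6, 6 and 0. The letters were not taken as pairing the samples in the main fits. Between groups, libraries with the same letter correlated at 0.0373 to 0.361 in their deviations from the group means. Those with different letters correlated at -0.322 to 0.132, and 7 of 9 libraries were closest to one of their own letter. Libraries of the same letter thus tended to be more alike. Signs changed for values near 0. For SNAI2 with both hairpins, leaving out 1 library gave -0.035 to 0.083, with the sign turned in 5 cases: control B (-0.035) or C (-0.0027), hairpin #1 A (-0.0096) and hairpin #3 B (-0.017) or C (-0.019). With hairpin #1 alone SNAI2 was at -0.14 to 0.046, turned for control A (0.020) and hairpin #1 B (0.046), and SNAI3 at -0.18 to 0.22, turned for control C (0.22) and hairpin #1 A (0.092). TCF4 between the hairpins was at -0.26 to 0.074, turned for hairpin #1 B (0.074). PRKD1 with both hairpins was at 0.61 and in the 3-group model at -0.21. POSTN and SMAD7 lost their calls under the block (adjusted p-value 0.0513 for POSTN and a log2 fold change of 0.95 for SMAD7, by edgeR).

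The family ratios have few arrangements. Adjusted p-values of SNAI2 to SNAI1 and TWIST2 to TWIST1 passed 0.05 with 0.1 in place of 0.5 added counts and missed it where fewer samples or arrangements were used, while the differences stayed. With hairpin #1 alone they were -2.86 and 1.05, with hairpin #3 alone -3.20 and 0.58 (adjusted 0.15 each), with the replicate block -3.03 and 0.81 (adjusted 0.0556), and without 1 library -3.20 to -2.91 and 0.67 to 0.90. ZEB2 to ZEB1 was -0.10 to 0.23 without 1 library, the sign turning without control replicate A. The smallest p-value of 3 against 3 libraries is 0.1. PRRX1 and FOXC2 were left out of the main tests by the filter on low counts. Without that filter the number of factors called with both hairpins was still 6. At this depth, counts so low allow little to be said of either gene.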
